A study of Mus musculus with 7 samples.

Results

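IgG2b is one of the classes of mouse antibody, and the cells described here are lymph node B cells whose only productive heavy chain transcript carried the IgG2b constant region. Members were barcodes with exactly 1 productive heavy chain contig (an assembled transcript) whose constant region call was IGHG2B. In the 6 libraries that each hold a single node and genotype, 202 of 17381 such single-heavy-chain cells met this rule, and 22 further barcodes with 2 or more heavy chains, at least 1 of them IGHG2B, were left out.

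The source was a single-cell study of wild-type (WT) mice and 5xFAD mice, which carry human transgenes linked to familial Alzheimer's disease and form amyloid plaques. Cells came from deep cervical lymph nodes (dCLN) and superficial cervical lymph nodes (sCLN), which drain the head and neck, and from inguinal lymph nodes (iLN), which drain the lower body. All animals were females aged 10 to 11 months that were perfused before the nodes were taken, and cells carried hashtag antibodies and were combined before loading. Each of the 6 groups (WT dCLN, 5xFAD dCLN, WT sCLN, 5xFAD sCLN, WT iLN and 5xFAD iLN) had 1 library, the sources used here tie no cell to an animal, and nodes of a genotype may come from the same animals.

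A B cell first makes IgM and IgD, and can later switch to IgG, IgA or IgE by deleting the constant genes that lie between. Switching starts with the enzyme AID, which also mutates the V segments of dividing B cells in germinal centres, most often at the C of short motifs called hotspots. Mouse IgG2b binds activating Fc receptors and complement, and is made in responses to viruses, to bacteria and to some T-independent antigens. The cells that leave a germinal centre become memory cells or plasma cells, and plasma cells hold very large amounts of antibody mRNA.

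The libraries held 2398 to 4411 barcodes, 2107 to 3904 cells with a single heavy chain and 99906 to 312484 immunoglobulin UMIs (unique molecular identifiers, which count molecules). The median heavy chain had 9 to 13 UMIs. Across the 6 libraries 225 barcodes occurred more than once. Of the IgG2b cells, 5 had such a barcode, and 0 of these had the same heavy junction in the other library. Tests below compare means or shares over libraries, never over cells. The exact two-sided sign-flip test over 6 libraries cannot give a p below 0.03125, and p-values measure only the spread between these libraries, which are not independent if they share animals.

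The label was first checked against the constant region itself, since IgG2b and IgG2c (the IgG2a-type class of some mouse strains) are close relatives. Each contig ran a median of 91 bases into the constant region. The first 60 bases after the J segment were identical to the reference Ighg2b sequence in 200 of 202 cells, and all 202 were identical over 50 bases when the start was allowed to shift. The reference stretches are shown because they are what separates the classes, with the bases that differ from Ighg2b in capitals.
Ighg2b: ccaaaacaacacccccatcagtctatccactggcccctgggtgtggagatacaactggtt
Ighg2c: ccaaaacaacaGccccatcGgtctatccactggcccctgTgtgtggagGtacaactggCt
Ighg1: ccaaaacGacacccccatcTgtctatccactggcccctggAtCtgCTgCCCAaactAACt
Over this stretch Ighg2c differed from Ighg2b at 5 bases, and Ighg1 and Ighg3 each at 13. Ighg2b lies at chr12:113302965-113307933 on the minus strand of GRCm38, annotated as an immunoglobulin constant gene. It is downstream of Ighm (chr12:113418558-113422730), which every switched cell has deleted on the allele in use.

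A WT dCLN clone is printed as an example at the sequence level, not as a typical one. Its cells were more mutated than the median IgG2b cell (1.70% of V bases over 202 cells). Of the 178 clones of IgG2b cells, 2 held IgG1 cells, this clone among them. It joined IGHV1-26 to IGHJ2, paired it with IGKV9-120, and held 2 IgG2b, 2 IgG2c and 2 IgG1 cells. The stretch from CDR1 to CDR2 (the first and second antigen-contact loops with the framework between them) is printed with mismatches to the germline V in capitals.
Germline IGHV1-26: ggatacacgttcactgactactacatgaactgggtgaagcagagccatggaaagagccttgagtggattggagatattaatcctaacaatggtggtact
Both IgG2b cells and an IgG2c cell: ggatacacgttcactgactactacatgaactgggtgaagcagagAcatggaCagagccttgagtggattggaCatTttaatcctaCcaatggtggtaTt
Both IgG1 cells and an IgG2c cell: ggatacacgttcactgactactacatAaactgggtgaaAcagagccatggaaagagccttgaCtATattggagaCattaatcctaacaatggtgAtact
Their junctions, the V-D-J joins, had the same bases in capitals, which mark bases assigned to none of V, D and J. These are called N bases (added without a template), although mutated V, D or J bases may be among them.
IgG2b junction: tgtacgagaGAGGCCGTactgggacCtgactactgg
IgG1 junction: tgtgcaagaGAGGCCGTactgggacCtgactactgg
The 2 IgG2b cells had 13 V mismatches each (4.42%) and the 2 IgG1 cells had 12 each (4.08%). The capitals fall at different bases in the printed lines, and each line was found in 1 of the IgG2c cells as well.

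IgG2b cells were a small share of B cells, larger in cervical than in inguinal libraries of WT mice. Of cells with an isotype call, they made up 1.45% in WT dCLN (48 of 3314, exact Clopper-Pearson 95% interval 1.07 to 1.92), 1.38% in WT sCLN (47 of 3404, 1.02 to 1.83) and 0.508% in WT iLN (11 of 2167, 0.254 to 0.906). In the 5xFAD libraries they made up 1.58% in dCLN (61 of 3866, 1.21 to 2.02), 0.939% in sCLN (22 of 2343, 0.589 to 1.42) and 0.624% in iLN (13 of 2084, 0.333 to 1.06). The intervals of WT dCLN, WT sCLN and 5xFAD dCLN lay above those of the iLN library of the same genotype, at 2.85, 2.72 and 2.53 times its share. The 5xFAD sCLN share was 1.51 times that of 5xFAD iLN, with overlapping intervals. These intervals cover counting error only, and with 1 library per group no difference between nodes has a replicate check.

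Among switched cells (IgG and IgA), the IgG2b share ran from 32.4% to 52% by library. It was 35.3% of 136 switched cells in WT dCLN, 38.4% of 159 in 5xFAD dCLN, 32.6% of 144 in WT sCLN, 32.4% of 68 in 5xFAD sCLN, 35.5% of 31 in WT iLN and 52% of 25 in 5xFAD iLN. All 6 intervals overlapped, and the iLN intervals were wide (19.2 to 54.6 and 31.3 to 72.2), so neither a difference nor a likeness between nodes is shown. The other IgG cells were 169 of IgG2c and 116 of IgG1 over the 6 libraries, so IgG2b was the commonest switched class over the 6 libraries together, while IgG2c cells were more numerous in WT dCLN (55) and WT sCLN (49).

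**Figure D1:**
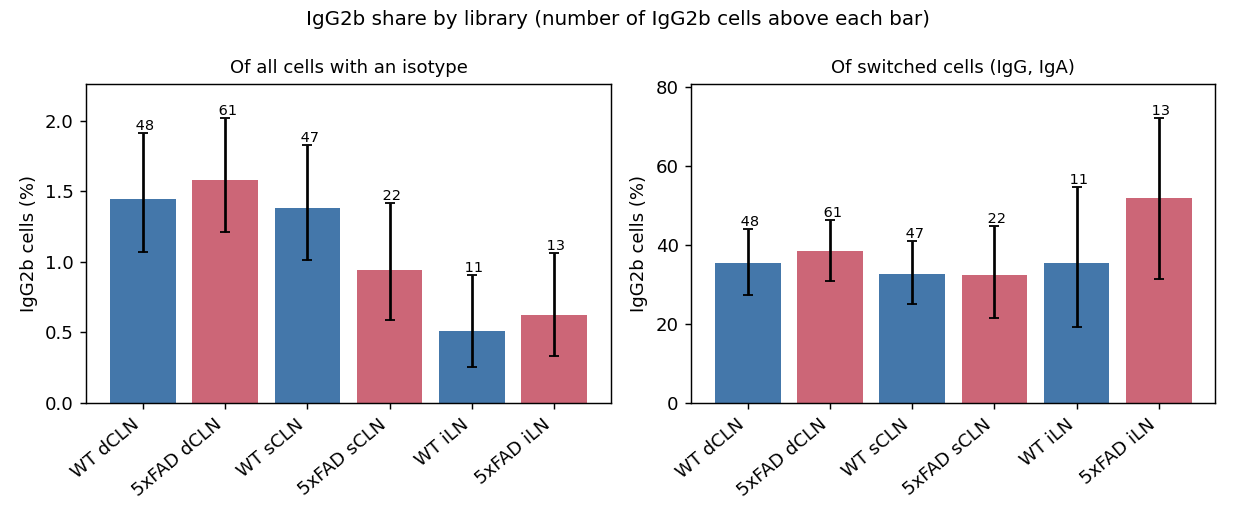
IgG2b cells as a percent of all cells with an isotype (left) and of switched cells (right), 1 bar per library, blue WT and red 5xFAD; lines are exact 95% intervals and numbers above the bars count IgG2b cells. On the left the iLN bars are the lowest (0.508% and 0.624%), and on the right all intervals overlap.

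The V segments of IgG2b cells carried far more mutation than those of IgM cells in every library. Mutation is given as the percent of V bases that differ from the assigned germline. Its mean over cells was 2.33 (SD over cells 2.42, n = 48 cells) in WT dCLN, 2.05 (1.96, n = 61) in 5xFAD dCLN, 2.21 (2.15, n = 47) in WT sCLN, 1.65 (2.08, n = 22) in 5xFAD sCLN, 3.25 (2.73, n = 11) in WT iLN and 1.78 (1.68, n = 13) in 5xFAD iLN. The IgM means of the same libraries lay between 0.0172 and 0.035, so the library means of the 2 classes did not overlap. The difference was 2.18 percentage points on average (SD 0.571 over 6 libraries) and was positive in 6 of 6, with an exact sign-flip p of 0.03125. Adjusted by Benjamini-Hochberg over the 10 measures compared, that is 0.0625, so this difference misses 0.05 although no library goes the other way.

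IgG2b cells spread over the whole range, from unmutated to above 10%. Of the 202 cells, 44 had no V mismatch, 32 had less than 1%, 62 had from 1% to below 3%, 45 from 3% to below 5%, and 19 had 5% or more. Medians were 2.05% in WT dCLN, 1.70% in 5xFAD dCLN, 1.71% in WT sCLN, 1.02% in 5xFAD sCLN, 2.38% in WT iLN and 1.37% in 5xFAD iLN, and the most mutated cell, in WT dCLN, had 10.6%. The share at 1% or more was 54.5% to 81.8% by library, against 0.367% to 0.873% of IgM cells. The unmutated share was 15.4% to 27.3%, against 95.3% to 96.9% of IgM cells.

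The 44 unmutated IgG2b cells were a mixed set in their receptors. They used 27 IGHV genes, and 9 of them belonged to clones of 2 or more cells. Of the 37 with a single light chain, 25 had an unmutated light chain V as well. Among the 126 cells with 1% or more heavy chain mutation, 113 had a single light chain and 11 of those light chains were unmutated.

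**Figure D2:**
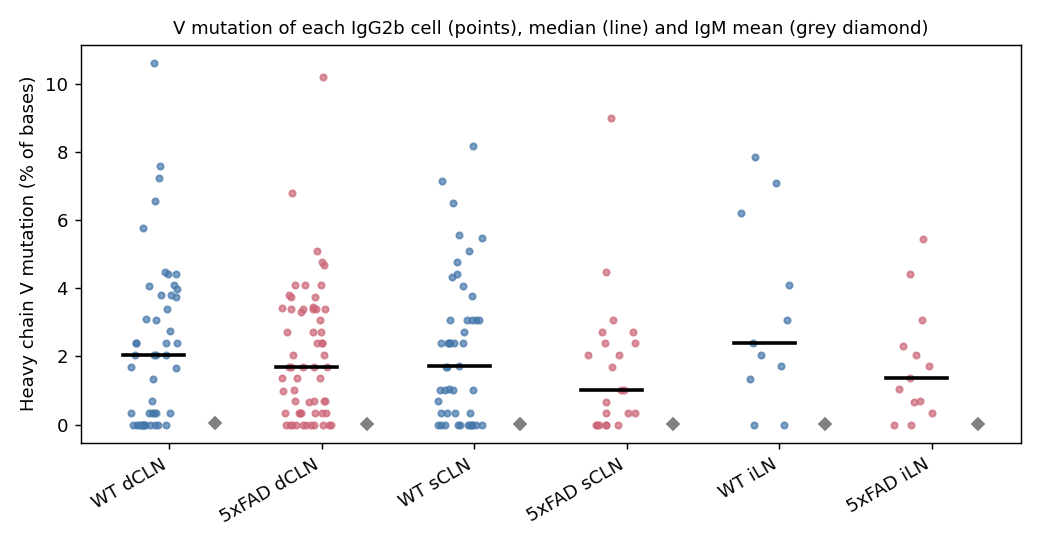
Heavy chain V mutation (percent of V bases) of each IgG2b cell by library, with the median as a line and the IgM mean of the same library as a grey diamond. Points run from 0 to 10.6%, and every median (1.02% to 2.38%) lies above the IgM diamond beside it.

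Light chains were mutated along with heavy chains. The mean light chain V mutation of IgG2b cells with a single light chain was 1.56% in WT dCLN, 1.39% in 5xFAD dCLN, 1.65% in WT sCLN, 0.804% in 5xFAD sCLN, 2.55% in WT iLN and 1.33% in 5xFAD iLN. IgM cells had 0.128% to 0.198%, again below every IgG2b value (mean difference 1.38, SD 0.564, 6 of 6 libraries, exact p = 0.03125, adjusted 0.0625). Over the 178 IgG2b cells with a single light chain, heavy and light chain mutation were correlated with a Pearson r of 0.657 and a Spearman rho of 0.657. The points are cells that share libraries and clones, so no test is attached.

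Mismatches were concentrated in the antigen-contact loops and in AID hotspots. In the compared V bases of IgG2b cells, 1251 of 58226 differed from germline. By region, 4.54% of CDR2 bases and 2.87% of CDR1 bases differed, against 2.44%, 1.59% and 1.09% in the third, the second and the first framework. By library, CDR1 and CDR2 together had 5.06% in WT dCLN, 2.84% in 5xFAD dCLN, 3.65% in WT sCLN, 2.75% in 5xFAD sCLN, 5.49% in WT iLN and 3.04% in 5xFAD iLN. The frameworks had 1.78%, 1.88%, 1.95%, 1.31%, 2.77% and 1.54% in the same order. The loops were higher in all 6 libraries, by 1.94 percentage points on average (SD 0.879, exact sign-flip p = 0.03125, adjusted 0.0469 over 3 measures of position). In IgM cells, loops had 0.0124% to 0.0389% and frameworks 0.013% to 0.03%.

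Hotspots were defined as a C that ends AAC, AGC, TAC or TGC, or on the other strand a G that begins GTT, GCT, GTA or GCA, read in the germline V. They held 13.9% of the compared bases and 40.7% of the mismatches. At hotspot G and C bases the mismatch rate was 6.50% in WT dCLN, 6.26% in 5xFAD dCLN, 6.71% in WT sCLN, 5.31% in 5xFAD sCLN, 7.69% in WT iLN and 4.90% in 5xFAD iLN. At all other G and C bases it was 0.859% to 1.34%. The difference was 5.17 percentage points (SD 0.921, 6 of 6 libraries, exact sign-flip p = 0.03125, adjusted 0.0469). In IgM cells the rates were 0.0262% to 0.0746% at hotspot G and C and 0.00405% to 0.0136% at other G and C. Hotspots were thus the higher in IgM cells of every library too, at far lower rates. Leaving out any library brings both position differences to an adjusted p of 0.0938, since 5 libraries cannot give an exact p below 0.0625; the differences themselves then lie between 1.67 and 2.13 for loops and between 4.91 and 5.42 for hotspots.

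G or C was the germline base at 58.7% of the mismatches, and 60.8% were transitions, changes within the purines or within the pyrimidines. The commonest single change was G to A (289 mismatches), then A to G (205) and C to T (200). Replacement changes, which alter the amino acid, were 75.3% of mismatches in the loops and 65.8% in the frameworks over all cells. Of all possible single base changes, 78.96% in the loops and 77.66% in the frameworks would be replacements. By library the loop value exceeded the framework value in 4 of 6 (mean difference 11.5, SD 11.3, exact p = 0.125), which is within the spread of the libraries.

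**Figure D3:**
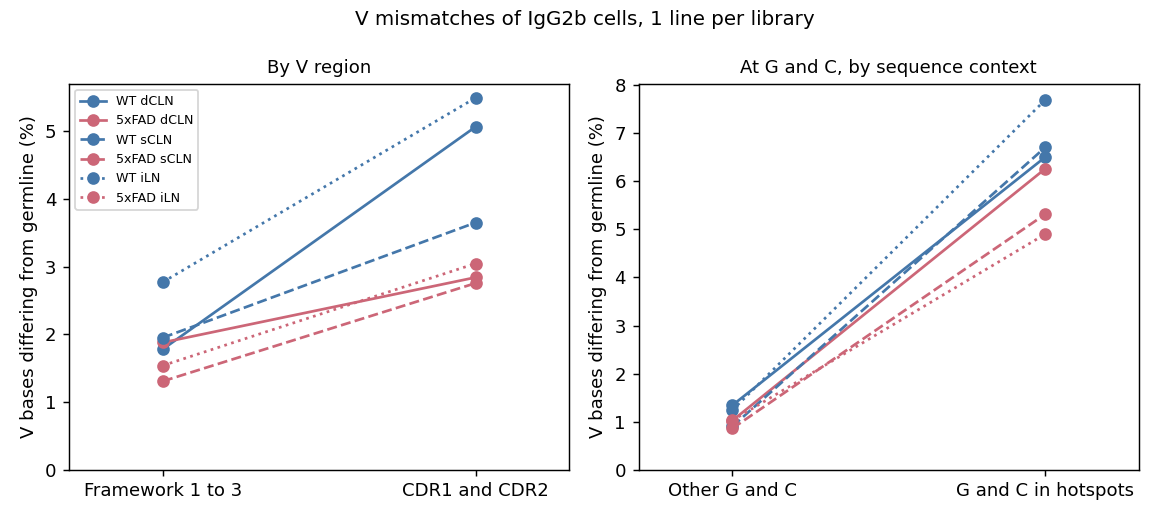
Percent of V bases of IgG2b cells that differ from germline, in frameworks against CDR1 and CDR2 (left) and at other G and C against hotspot G and C (right), 1 line per library. All 6 lines rise in both panels, from 1.31% to 2.77% up to 2.75% to 5.49% on the left and from 0.859% to 1.34% up to 4.90% to 7.69% on the right.

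The junction, which forms the third heavy chain loop, did not differ in length from that of IgM cells beyond the spread of the libraries. Its mean was 40.3 bases in WT dCLN, 40.4 in 5xFAD dCLN, 42.9 in WT sCLN, 42.4 in 5xFAD sCLN, 46.6 in WT iLN and 45 in 5xFAD iLN, against 41.9 to 42.4 in IgM cells. The difference of 0.778 bases (SD 2.41, 4 of 6 libraries, exact p = 0.469) was within the spread, and both dCLN libraries were below IgM while both iLN libraries were above. N bases averaged 7.33, 8.72, 9.44, 7.57, 7.55 and 7.69 per junction with a D call in that order of libraries, against 6.90 to 7.17 in IgM cells (difference 0.973, SD 0.926, 6 of 6 libraries, exact p = 0.03125, adjusted 0.0625).

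The N base difference depended on which cells were counted. Among cells below 1% V mutation it was -0.481, with IgG2b means of 6.80 in WT dCLN, 8.40 in 5xFAD dCLN, 9.13 in WT sCLN, 6.90 in 5xFAD sCLN, 1.5 in WT iLN (2 cells) and 6.80 in 5xFAD iLN. Without the WT iLN it was 0.555 (exact p = 0.5). N counts also differed between cells of a clone. Between V and D, cells of a WT dCLN clone of IGHV1-64, IGHJ2 and IGKV14-100 had 6 or 7 N bases. Mutated V, D or J bases may thus be counted as N bases, and how many were was not tested. No direction is therefore given for N bases.

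Use of V, D and J segments in IgG2b cells covered much of the repertoire. The cells used 61 IGHV genes, 22 of them in a single cell, and 58 light chain V genes. No segment passed an adjusted p of 0.05 by the exact sign-flip test against IgM: 0 of 15 IGHV families (0%), 0 of 4 IGHJ genes (0%), 0 of 38 IGHV genes (0%), 0 of 21 light chain V families (0%), 0 of 168 D calls (0%) and 0 of 29 D families (0%), joint names included. An unadjusted p below 0.05 was found for 2 IGHV families, 3 IGHV genes, 16 D calls and 1 D family, and for 0 IGHJ genes and 0 light chain families. The smallest adjusted p-values were 0.234, 0.25, 0.396, 0.875, 0.328 and 0.3625 in that order. With 6 libraries, 1 feature that differed alone could not pass the adjusted threshold in any of these families, whatever the size of its difference.

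By family, IGHV1, the largest family of the mouse, was used by 115 of 202 IgG2b cells, followed by IGHV2 with 19, IGHV5 with 15, IGHV9 with 13, IGHV6 with 8, IGHV14 and IGHV8 with 7 each, IGHV3 and IGHV10 with 6 each, IGHV4 with 4 and IGHV7 with 2. IGHV1 took 58.3% of IgG2b cells in WT dCLN, 63.9% in 5xFAD dCLN, 61.7% in WT sCLN, 31.8% in 5xFAD sCLN, 27.3% in WT iLN and 69.2% in 5xFAD iLN, against 55.2% to 58.2% of IgM cells. The share was thus above IgM in 4 libraries and far below it in the other two. IGHV11, IGHV12, IGHV13 and IGHV15 had 0 IgG2b cells. Of 15 families, 2 (13.3%) had one sign in all 6 libraries, IGHV13 and IGHV15, and these were rare in IgM cells too (39 and 22 of 13024).

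By gene, the most used were IGHV1-64 (14 cells, chr12:115507545-115508031), IGHV9-3 (11, chr12:114140692-114141122), IGHV1-26, IGHV1-76 and IGHV2-9-1 (10 each), IGHV1-53 (8), IGHV1-50 (7), and IGHV1-81 and IGHV3-6 (6 each). IGHV1-72, IGHV1-82, IGHV2-2, IGHV6-6 and IGHV8-8 had 5 each. These genes are V segments on the minus strand of the heavy chain locus. The cell counts include clone mates. Among them were clones of 3, 3 and 2 IgG2b cells in IGHV1-64, 4 in IGHV9-3, 4 in IGHV1-53, and 3 and 2 in IGHV1-76. The largest positive differences from IgM, as means over libraries, were those of IGHV2-9-1 (6.57% of IgG2b against 1.45% of IgM cells, higher in 5 of 6 libraries, exact p = 0.0938), IGHV1-76 (4.43% against 1.19%, 4 of 6, p = 0.125) and IGHV6-6 (4.06% against 0.931%, 3 of 6, p = 0.4375). With each clone counted once, these differences were 5.53, 2.74 and 3.41 percentage points in that order (exact p = 0.0938, 0.219 and 0.406).

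The largest negative differences were those of IGHV1-18 (0.273% of IgG2b against 2.08% of IgM cells), IGHV1-19 (0 cells against 1.81%) and IGHV3-6 (1.88% against 3.41%). IGHV1-18, IGHV1-19 and IGHV1-22 were the 3 of 38 tested genes (7.89%) with one sign in all 6 libraries, on 1, 0 and 1 IgG2b cells (exact p = 0.03125, adjusted 0.396). Genes this rare in IgM cells are likely to be absent from small libraries whatever their true use. WT iLN, 5xFAD iLN and 5xFAD sCLN held 11, 13 and 22 IgG2b cells, so a negative sign there shows little.

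Among J segments, IGHJ2 was used by 77 cells, IGHJ4 by 56, IGHJ1 by 39 and IGHJ3 by 30. IGHJ3 had the widest gap to IgM. Its share was 12.5% in WT dCLN, 24.6% in 5xFAD dCLN, 8.51% in WT sCLN, 13.6% in 5xFAD sCLN, 9.09% in WT iLN and 7.69% in 5xFAD iLN, against 22.2% to 24.1% of IgM cells. It was lower in 5 of 6 libraries, by 10.8 percentage points on average (SD 5.98, exact p = 0.0625, adjusted 0.25). The mean differences of IGHJ1, IGHJ2 and IGHJ4 were 4.59, 1.67 and 4.53, each with 3 or 4 libraries above IgM.

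The commonest D calls were IGHD1-1 (47 cells), IGHD4-1 (32), IGHD2-4 or IGHD2-9 (15), IGHD2-5 or IGHD2-6 (15) and IGHD2-3 (10), and 23 cells had no D call. Of the 168 D calls tested, 16 (9.52%) had one sign in all 6 libraries. IGHD3-2 was among them, called alone in 2 IgG2b cells and 429 IgM cells (mean share 0.628% against 3.33%, lower in 6 of 6 libraries, exact p = 0.03125, adjusted 0.328). Joint names were counted apart, and a joint IGHD1-3 or IGHD3-2 call was found in 2 IgG2b and 0 IgM cells. The IGHD3 family had 7 IgG2b cells (mean share 3.54% against 5.38%, above IgM in 2 of 6 libraries, exact sign-flip p = 0.344). How far joint names account for the low IGHD3-2 share was not tested. Of the 29 D families, 1 (3.45%) had one sign in all 6 libraries, a joint IGHD2 and IGHD5 name with 0 IgG2b and 26 IgM cells.

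Among light chains, IGKV10-96 (13 cells) and IGKV1-117 (11) led, followed by IGKV14-111, IGKV6-17 and IGKV6-32 (7 each) and IGKV6-13 (6). Lambda light chains were found in 8 of the 178 cells with a single light chain, and the lambda share did not differ from IgM beyond the spread (mean difference -0.391 percentage points, exact p = 0.906).

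**Figure D4:**
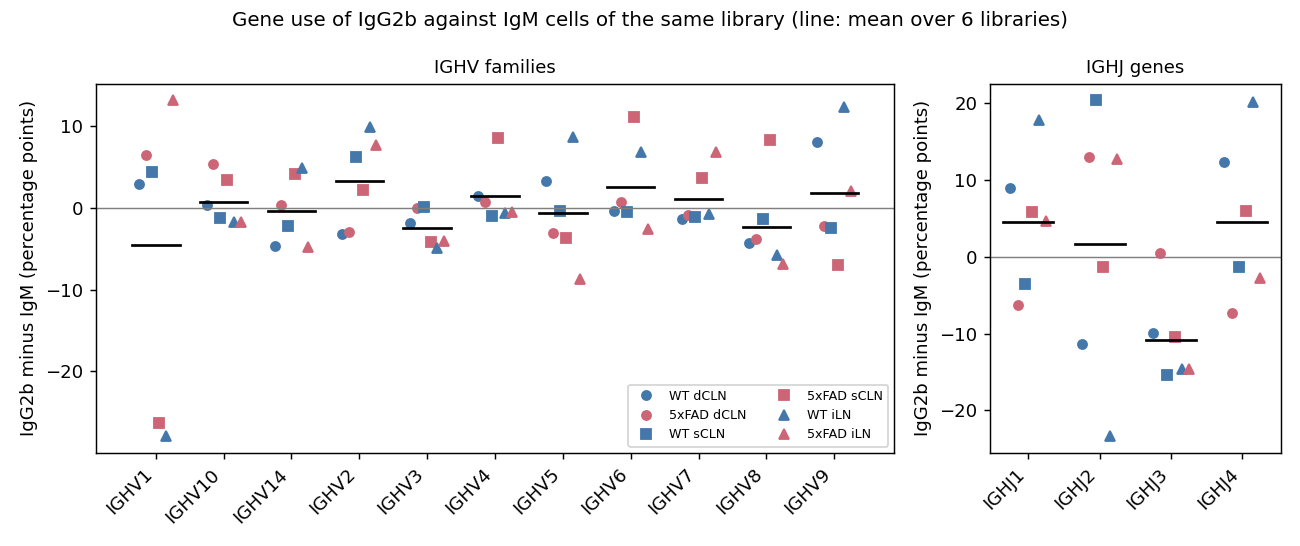
Share of IgG2b cells minus share of IgM cells of the same library (percentage points) for IGHV families with an IgG2b cell (left) and IGHJ genes (right), 1 point per library and a line at the mean. Points of most families lie on both sides of 0, and IGHJ3 lies below 0 in 5 of 6 libraries.

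IgG2b cells were found in small clones. Clones were cells of a library with the same IGHV and IGHJ, the same junction length and junctions that differ at no more than 0.15 of their bases, and the same light chain V, J and junction length where both cells had a single light chain. The 202 cells formed 178 clones. In clones of 2 or more cells were 24 of 48 IgG2b cells (50%) in WT dCLN, 11 of 61 (18.0%) in 5xFAD dCLN, 8 of 47 (17.02%) in WT sCLN, 3 of 22 (13.6%) in 5xFAD sCLN, 2 of 11 (18.2%) in WT iLN and 0 of 13 in 5xFAD iLN. IgM shares were 14.7%, 5.84%, 10.3%, 8.62%, 5.75% and 6.72% in that order. The IgG2b share was higher in 5 of 6 libraries, by 10.8 percentage points on average (SD 13.9, exact p = 0.0938, adjusted 0.156), and WT dCLN stood apart: without it the mean difference was 5.94. The high WT dCLN share was not particular to IgG2b, with 25 of 55 IgG2c cells (45.5%) and 7 of 13 IgG1 cells (53.8%) in clones there. The mean difference of IgG2b was 4.43 from IgG2c (5 libraries, exact sign-flip p = 0.4375) and -7.77 from IgG1 (6 libraries, p = 0.375).

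Other isotypes joined the clones of IgG2b cells. Of the 24 clones of 2 or more cells, 9 also held IgG2c, 2 held IgG1, 2 held IgM or IgD and 0 held IgA. With 2 or more IgG2b cells there were 16 clones, which together held 40 of the 202 cells. In 9 of them (20 cells) all IgG2b cells had the same junction and the same number of V mismatches, and in 7 they differed.

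A clone with an IgM member came from 5xFAD dCLN and joined IGHV1-53 (chr12:115158403-115158835) to IGHJ2 with IGKV6-13. Its 4 IgG2b cells had 7, 7, 8 and 10 V mismatches (2.38% to 3.40%) and its IgM cell had 3 (1.02%). All 5 cells had the same heavy junction, tgtgcaagaGGaactgggactgactactgg, with N bases in capitals. The lines below run from CDR1 to CDR2 with mismatches to germline in capitals.
Germline IGHV1-53: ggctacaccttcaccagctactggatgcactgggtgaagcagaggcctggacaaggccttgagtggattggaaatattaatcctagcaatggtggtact
IgM cell: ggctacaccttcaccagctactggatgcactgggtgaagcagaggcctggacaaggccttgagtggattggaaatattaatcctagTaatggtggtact
3 IgG2b cells: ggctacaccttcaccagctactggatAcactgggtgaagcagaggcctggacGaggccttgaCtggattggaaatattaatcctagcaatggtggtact
IgG2b cell with 10 mismatches: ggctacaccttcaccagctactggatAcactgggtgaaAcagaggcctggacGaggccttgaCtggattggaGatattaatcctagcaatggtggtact
The 4 IgG2b cells had the same 3 mismatches in this stretch, the most mutated of them had 2 more, and the IgM cell's mismatch lay elsewhere.

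The other clone with 4 IgG2b cells, from WT dCLN, joined IGHV9-3 to IGHJ4. It had 7 to 9 V mismatches per IgG2b cell (2.39% to 3.09%), only 1 to 5 heavy UMIs per cell, and an IgG2c member with 5 mismatches. Its 4 cells with a single light chain had 3 different light chain V genes, the commonest in 2 of the 4, so its cells may not descend from 1 B cell.

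Further WT dCLN clones, with 3 IgG2b cells each, differed in their level of mutation. An IGHV1-64 and IGHJ1 clone had 1 mismatch (0.34%) in each cell, an IGHV1-64, IGHJ2 and IGKV14-100 clone had 11 to 13 (3.81% to 4.47%), and an IGHV1-78, IGHJ4 and IGKV8-24 clone had 19 to 22 (6.55% to 7.59%). The IGHV1-78 cells are printed because no member matched another over this stretch.
Germline IGHV1-78: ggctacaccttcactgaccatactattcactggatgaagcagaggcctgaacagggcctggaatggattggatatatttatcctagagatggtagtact
IgG2b cell with 19 mismatches: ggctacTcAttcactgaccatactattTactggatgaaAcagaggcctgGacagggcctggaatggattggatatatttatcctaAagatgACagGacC
IgG2b cell with 21 mismatches: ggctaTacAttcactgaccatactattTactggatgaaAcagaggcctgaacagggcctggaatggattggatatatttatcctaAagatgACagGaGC
IgG2b cell with 22 mismatches: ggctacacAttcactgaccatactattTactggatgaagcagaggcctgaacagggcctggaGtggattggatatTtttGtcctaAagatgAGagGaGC
The cells have 10, 10 and 11 mismatches in this stretch, some of them common to all.

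Other clones of 2 IgG2b cells also lay at different levels of mutation. In 5xFAD dCLN, an IGHV5-17, IGHJ2 and IGKV3-12 clone had 1 mismatch (0.34%) in each cell, and an IGHV1-80, IGHJ2 and IGKV6-25 clone had 0 and 2 (up to 0.68%). In WT sCLN, an IGHV2-2, IGHJ4 and IGLV3 clone had 7 (2.39%) in each cell and an IGHV1-64, IGHJ2 and IGKV14-111 clone had 9 (3.06%). A 5xFAD sCLN clone of IGHV4-1, IGHJ4 and IGKV12-41 had 8 (2.70%) in each cell. A WT iLN clone of IGHV5-16, IGHJ1 and IGKV10-96 had 18 and 21 (6.21% and 7.10%). The cells of the IGHV1-80 clone and of the IGHV5-16 clone had different junctions, and those of the other clones had 1 junction each.

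An unmutated heavy chain of IGHV8-8 and IGHJ2 occurred in both cervical nodes of 5xFAD mice. Its junction was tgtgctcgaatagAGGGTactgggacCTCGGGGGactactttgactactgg in every cell. It was found in 1 IgG2b, 1 IgD and 1 IgG2c cell in 5xFAD dCLN and in 1 IgG2b and 1 IgG2c cell in 5xFAD sCLN. A single light chain, IGKV6-15, was seen in 2 of the 3 dCLN cells and 1 of the 2 sCLN cells. The sCLN IgG2b cell had 0 light chains, and both sCLN cells had only 2 heavy UMIs. When the 6 libraries were pooled, 14 clones with an IgG2b cell reached 2 or more libraries, and 2 of them had IgG2b cells in more than 1 library. Of the 14, 5 joined WT with 5xFAD libraries, whose cells are from different animals, and 2 had a single heavy junction in all their cells. Membership of a pooled clone therefore does not by itself show descent from 1 B cell. Whether the nodes of a genotype came from the same animals is not given.

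The median IgG2b cell had fewer heavy chain UMIs than the median IgM cell in every library but 5xFAD iLN, and a few IgG2b cells lay far above. The median was 9 UMIs in WT dCLN, 10 in 5xFAD dCLN, 11 in WT sCLN, 10 in 5xFAD sCLN, 10 in WT iLN and 14 in 5xFAD iLN. IgM medians were 10, 14, 12, 13, 14 and 13 in that order. On the log2 scale the mean difference was -0.03 (SD 0.69, 3 of 6 libraries above, exact p = 0.906). With medians over cells it was -0.253 (exact sign-flip p = 0.0625, adjusted 0.125). Cells with 100 or more heavy UMIs were 7 of 48 (14.6%) in WT dCLN, 3 of 47 (6.38%) in WT sCLN and 1 of 13 (7.69%) in 5xFAD iLN. There were 0 of 61 in 5xFAD dCLN, 0 of 22 in 5xFAD sCLN and 0 of 11 in WT iLN, which allow shares up to 4.92%, 13.6% and 27.3%. IgM cells had 0% to 0.321%. The mean difference was 4.59 percentage points (3 of 6 libraries above, exact p = 0.25). It was 2.64 without WT dCLN, 2.995 without the IgG2b clones of identical junctions that hold such a cell, and 8.55 with the limit at 50 UMIs (exact p = 0.0625).

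In WT dCLN, the 7 high cells held 97.7% of the 25100 IgG2b UMIs. The highest were 2 cells of a clone with IGHV2-9-1, IGHJ4 and IGKV17-121 (7593 and 8595 UMIs, 2.05% mutation each), with the junction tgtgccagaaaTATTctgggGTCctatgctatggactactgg. Next was a lone IGHV8-12 cell with 5667 UMIs, which was also the most mutated IgG2b cell (10.6%), with the junction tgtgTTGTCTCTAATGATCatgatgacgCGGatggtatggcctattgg. An IGHV1-31 cell with 1674 UMIs had 1 mismatch (0.34%) and a clone mate with 21 UMIs and 10 mismatches (3.40%). High UMI cells were thus found unmutated, lightly mutated and heavily mutated. Over all 202 cells, mutation and log2 UMIs had a Pearson r of 0.0431 and a Spearman rho of -0.00619, given with no test because cells share libraries and clones. Plasma cell genes were not analysed here, and whether free antibody mRNA from such cells reached other barcodes was not tested.

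**Figure D5:**
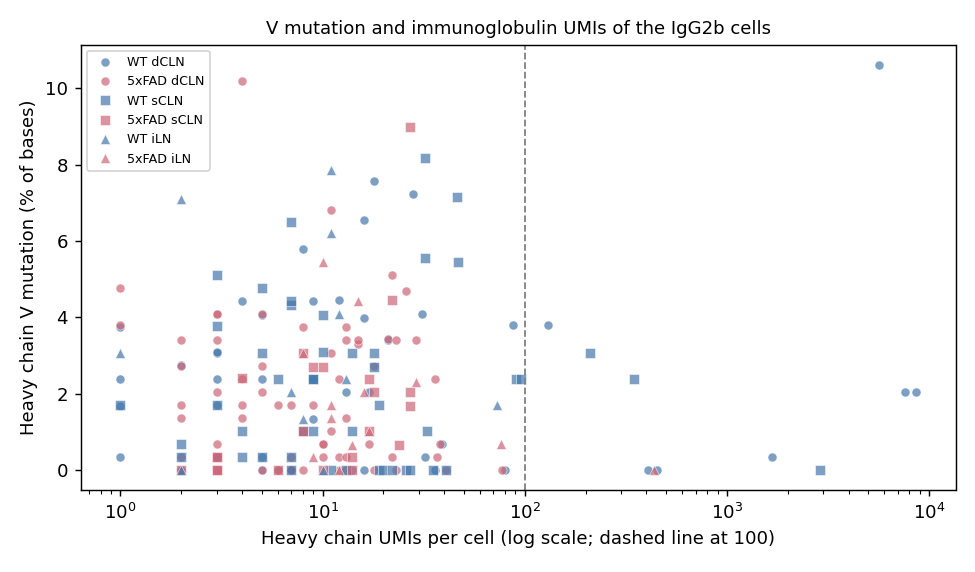
Heavy chain V mutation (percent of V bases) against heavy chain UMIs per IgG2b cell (log scale, dashed line at 100 UMIs), colour by genotype and marker by node. The 11 cells at or right of the line run from 0 to 10.6% mutation, and 7 of them are from WT dCLN.

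Against the IgG classes most like it, IgG2b had more unmutated cells than IgG1. IgG1 cells without a V mismatch were 0 of 13 in WT dCLN, 2 of 32 in 5xFAD dCLN, 6 of 34 in WT sCLN, 0 of 19 in 5xFAD sCLN, 0 of 11 in WT iLN and 0 of 7 in 5xFAD iLN. The IgG2b share was above the IgG1 share in 6 of 6 libraries, by 17.2 percentage points on average (SD 8.09, exact p = 0.03125), and the adjusted p over the 10 measures was 0.3125. Mean mutation was 2.21% in IgG2b and 2.89% in IgG1 (difference -0.675, 2 of 6 libraries above, exact p = 0.25).

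IgG2c was compared in the 5 libraries with 5 or more cells of both classes, all but 5xFAD iLN. Mean V mutation of IgG2c cells was 3.33% in WT dCLN, 2.45% in 5xFAD dCLN, 3.55% in WT sCLN, 3.82% in 5xFAD sCLN and 2.45% in WT iLN (5 cells). IgG2b was lower in 4 of 5, with a mean difference of -0.822 percentage points (SD 1.11, exact p = 0.1875, adjusted 0.357). IgG2b junctions had fewer bases counted as N than IgG2c junctions in 5 of 5 libraries (mean difference -1.06, SD 1.03, exact p = 0.0625, adjusted 0.357), the smallest p that 5 libraries allow. That N base difference was -0.856 with each clone counted once (exact p = 0.1875) and -0.63 without WT dCLN (exact p = 0.125, adjusted 0.625). Mutated bases may be counted as N bases, and IgG2b was the less mutated class in 4 of these 5 libraries. Their part in this difference was not tested, so no direction is given for N bases here either. None of these differences passes 0.05 after adjustment.

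The comparison of 5xFAD with WT asks whether the amyloid model alters IgG2b cells, and with 1 library per node and genotype it could be made over the 3 nodes alone, where the exact test cannot go below 0.25. Mean V mutation was lower in 5xFAD in each node, the difference being -0.283 percentage points in dCLN, -0.564 in sCLN and -1.48 in iLN (mean -0.774, SD 0.623, exact p = 0.25, adjusted 0.833). Light chain mutation was lower in each node as well (-0.168, -0.851 and -1.22), and so was the share in clones (-32.0, -3.38 and -18.2 percentage points), each with an exact p of 0.25. The other 7 measures did not keep one sign over the 3 nodes. The iLN values rest on 11 WT and 13 5xFAD cells. Cells of 100 or more UMIs were 7, 3 and 0 in the WT libraries and 0, 0 and 1 in the 5xFAD libraries (dCLN, sCLN and iLN), and their part in these differences was not tested. Among IgG2c cells the counts were 6, 5 and 0 in the WT libraries and 1, 0 and 0 in the 5xFAD libraries. Mean V mutation of IgM cells was also lower in 5xFAD in each node (WT 0.035%, 0.0315% and 0.0228%, 5xFAD 0.0255%, 0.0274% and 0.0172%). That of IgG1 cells was higher in each node (WT 2.28%, 2.87% and 2.47%, 5xFAD 2.38%, 2.96% and 4.37%). In dCLN, the share in clones was also lower in 5xFAD for IgM (5.84% against 14.7%) and IgG2c (13.9% against 45.5%). It was not lower for IgG1 (56.25% against 53.8%).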

How the data were processed

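Single-cell V(D)J libraries of B cell receptors were made with a Chromium 5' kit, per the labels' protocols. The submitters' processing notes name the build mm10 and the tools Seurat 4.1.0 and Cell Ranger 6.0.1, with no role given. The tables list 1 contig per line. Per the file headers, the deposited UMI and read values of a contig are whole counts. The authors deposited V identity as a fraction, and V mutation is 100 times 1 minus it. Per the file headers, junction and N lengths count bases. The germline set is not given in the sources used here.

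Barcodes with a single productive heavy chain were analysed. Those with more were treated as possible doublets and dropped; a doublet caller was not used. Mutation position used the deposited alignments in IMGT numbering, gaps and ambiguous bases left out. Replacement was judged on the germline codon. Clones used single linkage. V calls naming several genes (7 IgG2b cells) were kept as joint names. Means or shares per library were compared by the exact two-sided sign-flip test (64 sign patterns of 6 libraries), with Benjamini-Hochberg adjustment within each family of tests. Intervals are Clopper-Pearson 95% intervals, shares at 0 have the limit that 3 counts give, and both cover counting error only. Python 3.11.15, numpy 2.4.6, pandas 2.3.3 and scipy 1.17.1 were used. Coordinates and constant sequences are from GENCODE M21 on GRCm38, where 119 of 122 V gene names were found.

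Members and lists were chosen with earlier results of these data known. Named IGHV genes were the 10 with most IgG2b cells with ties, and the 3 largest mean differences each way. All IGHV families and IGHJ genes, the 5 leading D calls and the 6 leading light chain V genes were named too, with clones of 2 or more IgG2b cells or in 2 libraries. IGHV1-22, IGHD3-2, the joint D family, IGHV8-12, the count of IGHV genes by clone and the clone order were singled out after their values were seen. Tested on simulated data, mismatch counts were wrong in 0 of 300 sequences, and 100 of 100 planted clone pairs were recovered. Planted pairs differed at 1 junction base, well within the joining rule, and false joins were not tested. The receptor of 1 clone is not reported here. The library that mixes all nodes and genotypes entered no comparison.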

Additional observations from a re-analysis of the deposited data

Results flagged for a closer look

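The library that mixes the 3 nodes and both genotypes entered no comparison, because its cells were not assigned to a node or genotype. It held 58 IgG2b cells among 2439 cells with an isotype, a share of 2.38% (exact Clopper-Pearson 95% interval 1.81 to 3.06), above the 0.508% to 1.58% of the other 6 libraries. Its interval overlaps those of both dCLN libraries and, by a narrow margin, that of WT sCLN (upper bound 1.83), and lies above those of 5xFAD sCLN, WT iLN and 5xFAD iLN (upper bounds 1.42, 0.906 and 1.06). IgG2b was 34.3% of its switched cells, within the range of the others. Its IgG2b cells had a mean V mutation of 2.32% (SD over cells 2.76), 20.7% were unmutated, 32.8% were in clones of 2 or more cells and 5 had 100 or more heavy UMIs. No IgG2b cell of it had the V gene and junction of an IgG2b cell in the other 6 libraries.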

How the results depend on the processing

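The mutation differences between IgG2b and IgM (heavy mean, heavy share at 1% or more, unmutated share, light mean) kept their sign under all alternatives run. These were cell filters, the alignment-based count, each clone once, IgM with IgD, other thresholds, medians and leaving out each library. Their adjusted sign-flip p-values did not pass 0.05 in the main run (0.0625) or under any alternative. With a library left out they could not pass, because 5 libraries cannot give an exact p below 0.0625. The heavy mean difference then ran from 1.98 to 2.30. Loop and hotspot differences had adjusted p-values of 0.0938 with any library left out (values from 1.67 to 2.13 and from 4.91 to 5.42), because 5 libraries cannot give less, and passed with 1 cell per clone. With identical junctions required, 29 in place of 48 IgG2b cells were in clones of 2 or more. Signs turned for some differences, none of which had an adjusted p below 0.05, and the cause was not tested. The log2 UMI difference from IgM was 0.26 with 3 or more UMIs, 0.17 against IgM with IgD and -0.18 to 0.12 with a library left out. The 5xFAD minus WT log2 UMI difference, -0.05, was 0.0503 with each clone once and 0.0675 with identical receptors as 1 cell. N bases against IgM were -0.481 among cells below 1% mutation, chosen after seeing the data. With a library left out, lambda share ran from -1.73 to 0.417 against IgM and from -0.99 to 1.83 against IgG1 (-0.155 with each clone once), junction length from -1.33 to 0.438 and N bases from -0.533 to 0.0614 against IgG1, and the high UMI share from -1.65 to 0.224 against IgG2c. Leave-one-out ranges against IgM crossed 0 for IGHV1 (-8.08 to 0.148), IGHV10 (-0.174 to 1.25), IGHV14 (-1.43 to 0.512), IGHV5 (-2.51 to 0.954), IGHV9 (-0.288 to 3.58) and IGHJ2 (-2.08 to 6.67). No paired analysis was possible by replicate number, because the labels give none; isotypes were paired within a library and genotypes within a node. The number of IgG2b cells, 11 to 61 per library, and the single library per group limit precision.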
